A study of Mus musculus with 6 samples.

Results

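The genes of autophagy described here are 40 genes whose products build, load or guide the autophagosome, taken by their symbols from a fixed list of the core machinery, with Map1s, a microtubule-associated protein that binds LC3. All 40 were found among the 12179 genes of the deposited normalized table, and their read counts were taken from the table of raw counts by the same gene identifier. RNA-Seq had been done on long-term HSCs (LT-HSCs) of C57BL/6 mice to ask what heterozygous loss of Foxm1, a forkhead transcription factor, changes in these cells. The cells were sorted from bone marrow by the surface markers CD150+CD48-LSK at 8 weeks of age, with 3 WT libraries and 3 Foxm1 HET libraries. The genotype labels call the second group heterozygous, whereas its sample titles name a floxed Foxm1 allele and no Cre. The study's methods use Tie2-Cre, active in endothelial and hematopoietic cells, and also Mx1-Cre elsewhere, and do not say which driver these libraries carry. No treatment is named for either group, and nothing in the labels says that animals were pooled.

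Macroautophagy encloses cytoplasm in a membrane and delivers it to the lysosome. The ULK kinase complex starts the process, a PI3-kinase complex marks the membrane, ATG9 vesicles and lipid transfer proteins supply it, and ubiquitin-like conjugation attaches LC3 and GABARAP proteins, which cargo receptors recognize. In HSCs the pathway is known for removing mitochondria and for keeping the stem cell pool.

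Library totals ran from 14573002 to 25798509 counted reads, lowest in Foxm1 HET replicate 2. Foxm1 itself had 1182, 2615 and 2942 WT reads against 659, 5 and 742 Foxm1 HET reads, where values in a row are always those of replicates 1, 2 and 3. Each Foxm1 HET library thus had fewer Foxm1 reads than each WT library. Of the sort and stem cell markers, Kit and Hlf had at least 10720 reads in every library, whereas Slamf1, which encodes CD150, was nearly absent from 4 of them, with 2, 1572 and 0 WT reads against 8, 0 and 543 Foxm1 HET reads. Ly6a, which encodes the sort marker Sca-1, had 125, 4 and 2 WT reads against 2261, 2 and 1597 Foxm1 HET reads. Procr and Hoxb5, further stem cell markers, were down to 3 and 0 reads in their lowest libraries. Cd48, whose product the sort selects against, had 221, 6608 and 1 WT reads against 1285, 5 and 22 Foxm1 HET reads. Markers listed as neutrophil were abundant in all libraries as a sum. Together the 8 held 4745 to 13700 CPM (reads scaled to a common library size) in WT and 1383 to 7637 in Foxm1 HET. They include Mpo, Elane and Prtn3, and Mpo alone held 314 to 3917 CPM in WT and 623 to 3207 in Foxm1 HET. The sum was not split between neutrophils and earlier myeloid cells. Of the 5 macrophage markers found, C1qa and Marco had 0 reads throughout, whereas Lyz2, which neutrophils also express, had 8161 to 96731 reads, Csf1r 110 to 2717 and Cd68 1 to 1296. Between pairs of libraries, Pearson's r over genes was 0.289 to 0.327 within WT and 0.358 to 0.441 within Foxm1 HET, against 0.306 to 0.443 between genotypes. These correlations are over genes, which are not independent replicates.

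The autophagy genes were unevenly detected. With at least 10 reads taken as detection, 31, 28 and 21 of the 40 genes were detected in WT replicates 1, 2 and 3. In the Foxm1 HET libraries these numbers were 34, 18 and 31. The smallest number was in Foxm1 HET replicate 2, where 36.4% of all genes in the normalized table reached 10 reads against 45.0% of the autophagy genes. Only 10 genes, or 25.0%, were detected in all 6 libraries, against 20.6% of the normalized table. These were the initiation genes Ulk1 and Rb1cc1, the PI3-kinase subunit Uvrag, the membrane genes Vmp1, Wipi2 and Atg2a, the LC3 gene Map1lc3b, the cargo receptors Tax1bp1 and Nbr1, and Map1s. None of the 11 conjugation genes was among them. For 16 genes (40%, against 31.8% of the normalized table), 1 library had at most 3 reads while another had at least 1000.

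**Figure D1:**
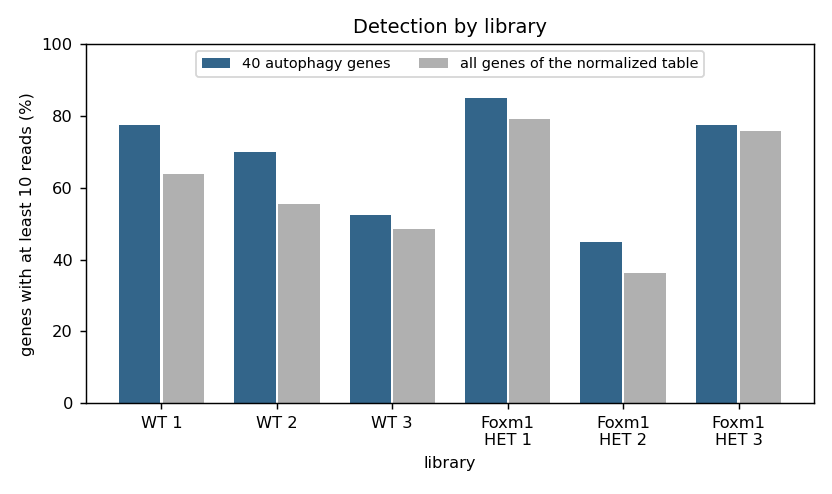
Bars give the percentage of genes with at least 10 reads in each library, in blue for the 40 autophagy genes and in gray for all 12179 genes of the normalized table. The autophagy genes lie above the whole table in every library, and both are lowest in Foxm1 HET replicate 2 (45.0% and 36.4%).

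Levels were compared between genes as TPM, which divides reads by gene length and gives every library the same sum. By mean TPM over the 6 libraries the highest genes were the cargo receptor Tax1bp1 at 193, Uvrag at 193, Map1s at 175, Atg5 at 145, Ulk1 at 113 and Vmp1 at 109. Their median TPM, in that order, were 117, 54.3, 13.0, 3.85, 70.3 and 109, so several of the means rest on few libraries. The gene in first place differed between libraries. It was Tax1bp1 in WT replicate 1, Rb1cc1 in WT replicate 2, Map1s in WT replicate 3, Atg13 in Foxm1 HET replicate 1, Uvrag in Foxm1 HET replicate 2 and Ulk1 in Foxm1 HET replicate 3. The 40 genes together held 1635, 1082 and 1802 TPM in WT libraries, against 1194, 2764 and 1829 TPM with Foxm1 HET, and the genotypes overlapped in the total. In Foxm1 HET replicate 2, Uvrag and Atg5 alone made up 64.6% of it.

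**Figure D2:**
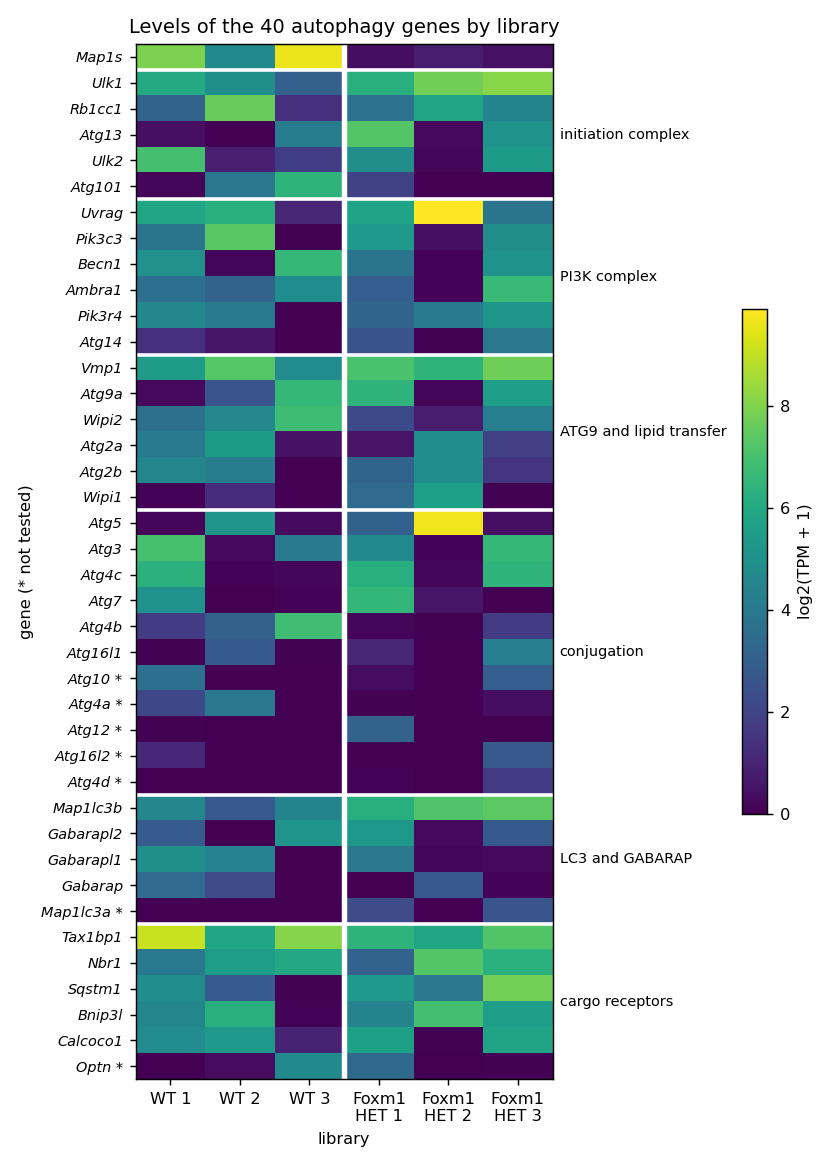
Color gives log2(TPM + 1) of each autophagy gene (rows, grouped by role) in each library (columns, WT to the left of the white line), and an asterisk marks a gene with too few reads to be tested. Map1s is bright in the WT columns and dark in the Foxm1 HET columns, while most other rows change as much within a genotype as between genotypes.

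Genotypes were compared by edgeR's quasi-likelihood test on the counts, with Benjamini-Hochberg adjustment over the 8195 genes that had enough reads. Of the autophagy genes 33 were tested, and Atg4a, Atg4d, Atg10, Atg12, Atg16l2, Map1lc3a and Optn were not. At an adjusted p under 0.05, 1 of the 33 was called, Map1s, where 0.329% of all genes tested were called (0.317% higher and 0.0122% lower in Foxm1 HET). The smallest adjusted p among the others was 0.217. Without adjustment, 4 of the 33 (12.1%) had a p under 0.05 against 6.03% of all genes tested. Uvrag and Atg5 were on the higher side (3.44% of all genes) and Atg4b and Map1s on the lower (2.59%). In TMM-scaled log2 CPM the 3 WT and 3 Foxm1 HET libraries did not overlap for 5 genes (15.2%), against 8.68% of all genes tested. Map1lc3b and Sqstm1 were higher in Foxm1 HET (4.12% of all genes), and Wipi2, Atg4b and Map1s were lower (4.55%). With 3 libraries against 3, a two-sided exact permutation test cannot give a p below 0.1, and all 5 genes had that value. The counts of autophagy genes above include Map1s, which was known to pass when the genes were chosen. Among the 32 other genes tested, none was called and 3 had an unadjusted p under 0.05 in edgeR's test. Of those 32, 2 were higher and 2 lower in Foxm1 HET without overlap in log2 CPM.

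The fitted log2 fold change (Foxm1 HET against WT) was above 0 for 19 genes and below 0 for 14, that is above 0 for 57.6% against 45.4% of all genes tested. By the difference of mean log2 CPM the shares above 0 were 57.6% and 52.6%. The median fitted fold change was 0.23, beside -0.26 over all genes, and the median difference of mean log2 CPM was 0.60, beside 0.14. The median standard error was 2.36, about the same as the 2.59 of all genes, and most fold changes were smaller than their own standard error. For 31 of the 33 genes (93.9%, against 95.9% of all genes tested) the log2 CPM range within a genotype was wider than the difference between the genotype means. The exceptions were Map1s and Map1lc3b. Foxm1 HET replicate 2 held the highest log2 CPM for 12 of the 33 genes (36.4%, against 19.4% of all genes tested), and WT replicate 3 held the lowest for 13 (39.4%, against 29.0%). Foxm1 HET replicate 2 also held the lowest log2 CPM for 6 of the 33 genes (18.2%, against 31.1% of all genes tested). TMM gave this library the smallest factor of all, 0.453, so that each of its reads weighs more in log2 CPM. That weight is the same for all genes.

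**Figure D3:**
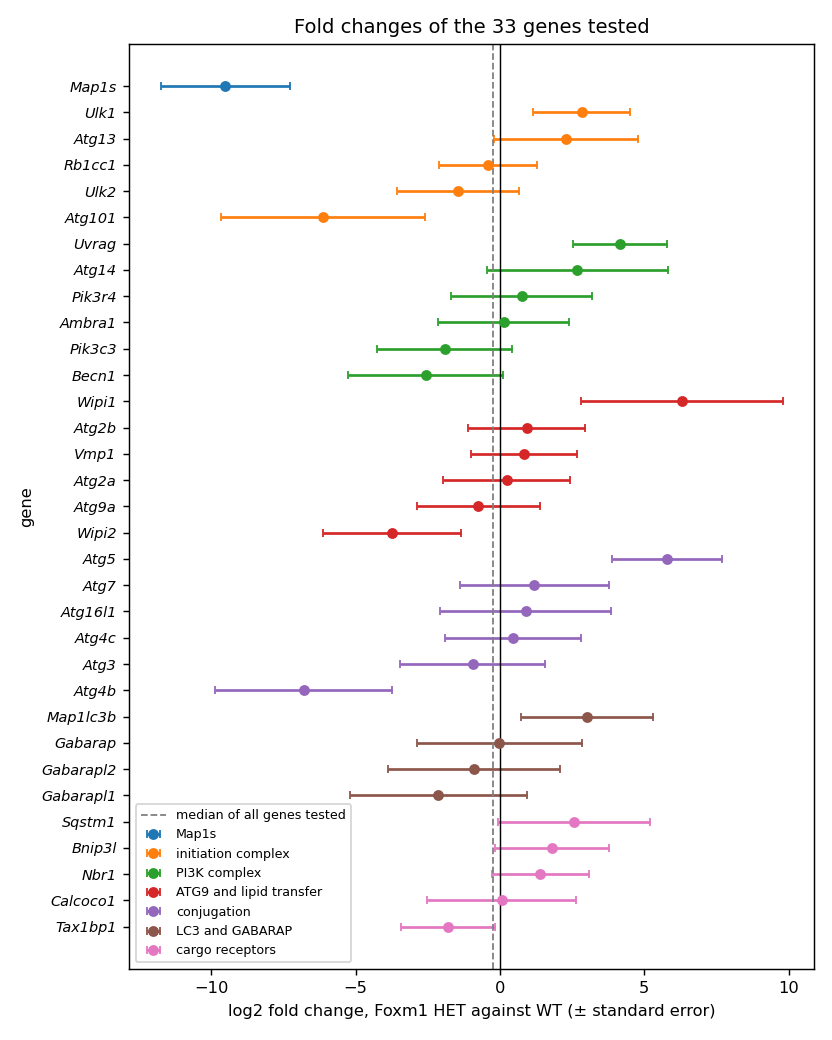
Points give the fitted log2 fold change (Foxm1 HET against WT) of the 33 tested autophagy genes with bars of ± 1 standard error, colored by role, and the dashed line is the median of all genes tested, -0.26. Map1s at -9.52 stands farthest from 0, and the intervals of many other genes cross 0.

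MAP1S links autophagosomes carrying LC3 to microtubules. The gene (identifier 270058) lies on the plus strand of chromosome 8 of GRCm38, from 70905974 to 70917529, and no stretch of 50 bases in its transcripts is shared with another annotated gene. In WT, replicate 1 had 7388 reads, replicate 2 had 821 and replicate 3 had 27346. In Foxm1 HET the counts were 11 in replicate 1, 15 in replicate 2 and 13 in replicate 3. The WT libraries were far apart from one another, whereas the Foxm1 HET libraries were all near the detection minimum. Per length these were 245, 25.3 and 779 TPM in WT against 0.277, 0.691 and 0.367 TPM in Foxm1 HET, so that the lowest WT level was 36.6 times the highest Foxm1 HET level. Among the 40 autophagy genes Map1s ranked 2nd, 12th and 1st by TPM in WT replicates 1, 2 and 3, and 34th, 17th and 31st in the Foxm1 HET libraries. It made up 43.2% of the autophagy TPM in WT replicate 3, and at most 0.025% in any Foxm1 HET library.

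Map1s averaged 8.10 ± 2.79 in WT and -0.51 ± 1.53 in Foxm1 HET on the log2 CPM scale (SD, n = 3 each). Its fitted difference was -9.52 on the log2 scale, with a standard error of 2.24 and an adjusted p of 0.0106 in edgeR's quasi-likelihood test, and it stood 16th of all genes tested by p. It was the only gene of the 8195 called lower in Foxm1 HET, where 26 were called higher, but this balance depended on the method, with 78 lower and 116 higher in DESeq2 and 4 lower and 0 higher in limma-voom. That Map1s passes was known when the genes were chosen, so its p is not independent evidence. The call rested on all 6 libraries, since leaving out any 1 of them gave an adjusted p between 0.124 and 0.378 with a log2 fold change between -11.09 and -7.63. DESeq2 kept the call (-8.74, adjusted p = 0.000215). On all 6 libraries it was lost with RLE factors (adjusted p = 0.125), a filter of 10 reads (adjusted p = 0.134), limma-voom (adjusted p = 0.847) and limma-trend (adjusted p over 0.99). DESeq2 gave an adjusted p to 23 of the 33 autophagy genes, not including Uvrag, Atg4b and Atg5, and called no other of the 23, where it called 3.13% of all genes with an adjusted p. In bulk RNA, fewer cells that express a gene and less of its RNA per cell cannot be told apart.

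The 8 neutrophil markers summed to 11450, 4745 and 13700 CPM in the WT libraries. In the Foxm1 HET libraries they summed to 7637, 7084 and 1383 CPM, so the genotypes overlapped in the sum. S100a9 had 22202, 24207 and 52419 WT reads against 20113, 5174 and 3150 Foxm1 HET reads. Prtn3 had 13, 71 and 2 WT reads against 1197, 365 and 5247 Foxm1 HET reads. Scaled by library size alone, both did not overlap (7.97% of all genes tested did not), and the other markers overlapped. Between 7 and 8 of the 8 markers reached 10 reads in each library, and none was at 0. The part of neutrophil or other myeloid RNA in the Map1s difference was not tested.

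**Figure D4:**
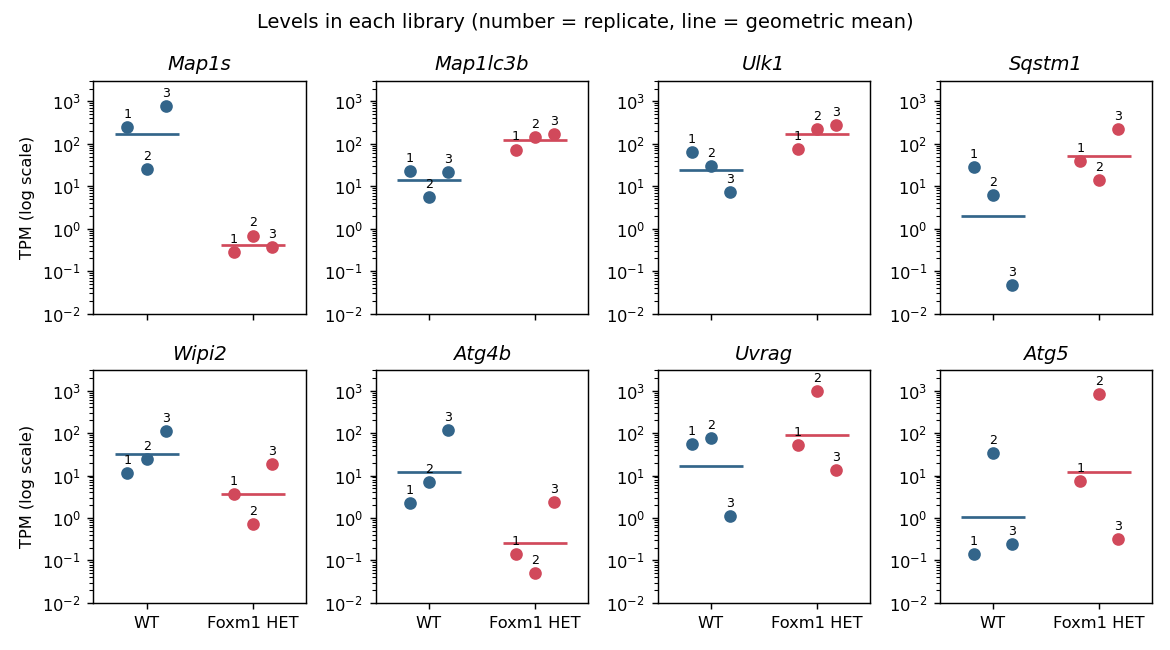
Points give TPM on a log axis for 8 autophagy genes in each library, numbered by replicate (blue WT, red Foxm1 HET), and lines give the geometric mean of each genotype. Map1s, Map1lc3b and Ulk1 separate fully by genotype in TPM, whereas in Uvrag and Atg5 the highest point is Foxm1 HET replicate 2.

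Promoter windows were examined because Foxm1 is a forkhead factor. RefSeq windows of GRCm38.p6, from 250 bases before to 50 bases after a gene start, were at hand for 33 of the 40 genes in 39 windows. The letters TAAACA, a core of forkhead sites, were searched on both strands and stood in 4 of the 39 windows (Ambra1, Atg4a, Gabarapl1 and Wipi2) and in 13.4% of all 32851 windows. The CHR letters TTTGAA, an element of cell cycle promoters, stood in 3 windows (Atg4a, Gabarapl1 and Tax1bp1), against 17.9% of all. An E-box of the letters CACGTG, which reads the same on both strands, stood in 4 windows (Atg3, Atg5, Atg7 and Atg14), against 7.15% of all. Each is a match of letters only, and no binding was measured in these samples.

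Windows are given for Map1s and Map1lc3b, the genes whose genotypes differed by more than either within-genotype range, and for Wipi2, the gene with a TAAACA match whose libraries also did not overlap. Capitals mark the TAAACA match, which starts at position -5 from the gene start of Wipi2. The windows of Map1s and Map1lc3b held none of the 3 motifs, and sequence farther out was not searched. The putative Foxm1 site that the paper reports upstream of Parp1 lies farther from its gene start than these windows reach.
Map1s promoter, chr8:70905724-70906023, plus strand: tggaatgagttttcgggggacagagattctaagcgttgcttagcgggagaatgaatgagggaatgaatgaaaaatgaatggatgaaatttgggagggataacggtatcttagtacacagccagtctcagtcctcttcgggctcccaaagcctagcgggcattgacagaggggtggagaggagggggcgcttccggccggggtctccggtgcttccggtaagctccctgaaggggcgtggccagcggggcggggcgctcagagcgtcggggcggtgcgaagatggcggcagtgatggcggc
Map1lc3b promoter, chr8:121590188-121590487, plus strand: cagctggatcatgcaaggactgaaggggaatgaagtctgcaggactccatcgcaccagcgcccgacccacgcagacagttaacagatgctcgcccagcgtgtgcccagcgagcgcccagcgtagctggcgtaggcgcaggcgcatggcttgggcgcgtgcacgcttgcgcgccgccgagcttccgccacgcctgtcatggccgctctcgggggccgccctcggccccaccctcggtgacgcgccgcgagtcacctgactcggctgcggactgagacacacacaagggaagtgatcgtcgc
Wipi2 promoter, chr5:142629334-142629633, plus strand: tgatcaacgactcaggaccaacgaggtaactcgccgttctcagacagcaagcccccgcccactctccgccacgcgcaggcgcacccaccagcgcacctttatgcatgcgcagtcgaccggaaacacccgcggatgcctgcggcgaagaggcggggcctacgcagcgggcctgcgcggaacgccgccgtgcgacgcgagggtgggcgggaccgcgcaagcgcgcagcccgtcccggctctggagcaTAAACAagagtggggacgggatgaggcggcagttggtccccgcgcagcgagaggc
Of these 300 bases, 59.3% are G or C for Map1s, 68.0% for Map1lc3b and 69.7% for Wipi2, where the median was 60.0% over the windows of the autophagy genes and 52.7% over all windows.

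Among the 5 genes of the initiation complex, all tested, 2 had a fold change above 0 and 3 below, none passed the test, and the median was -0.42. Ulk1, the kinase that starts autophagosome formation, had the highest mean TPM of the group, with 3138, 1541 and 404 WT reads against 4737, 7524 and 15847 Foxm1 HET reads. Its levels were 65.5, 29.9 and 7.25 TPM in WT and 75.0, 218 and 282 TPM in Foxm1 HET. All 3 Foxm1 HET libraries were higher, with the lowest of them 1.15 times the highest WT library. In TMM-scaled log2 CPM the groups overlapped, since Foxm1 HET replicate 1 (6.96) then lay below WT replicate 1 (7.15). Scaled by library size alone, 4 of the 33 autophagy genes did not overlap (12.1%, against 7.97% of all genes tested). Map1s and Atg4b were on the lower side (2.92% of all genes) and Ulk1 and Map1lc3b on the higher (5.05%). Map1s, known to pass when the genes were chosen, is counted here too.

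Atg101, a subunit that stabilizes ATG13, had the smallest p of the initiation genes, with 1, 171 and 1136 WT reads against 41, 0 and 0 Foxm1 HET reads. The genotypes overlapped, and its log2 fold change was -6.13 (edgeR adjusted p = 0.921, standard error 3.54). Ulk2, a second kinase, ran from 4 to 6725 reads over the 6 libraries. Rb1cc1, the scaffold of the complex, ran from 118 to 13415. Atg13, the regulatory subunit, ran from 0 to 6575, and 37.7% of its exon bases are shared with a gene on the other strand. In each of these 3 genes the genotypes overlapped.

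The PI3-kinase complex had 6 genes, all tested, with 4 fold changes above 0, 2 below and a median of 0.44. Uvrag, a Beclin 1 partner that acts in autophagosome and endosome maturation, had 1749, 2578 and 40 WT reads against 2232, 21898 and 490 Foxm1 HET reads. A single library, Foxm1 HET replicate 2, stood above the rest with 960 TPM, while the other Foxm1 HET libraries lay within the WT range. The fitted log2 fold change was 4.14 (edgeR adjusted p = 0.487, standard error 1.62), and -0.84 without that library. Of the 50-base stretches of Uvrag transcripts, 17.4% also occur in other genes. The lipid kinase Pik3c3 ran from 1 to 5062 reads. Becn1, the scaffold known as Beclin 1, ran from 1 to 2070, with 36.8% of its stretches shared with other genes. The regulatory kinase subunit Pik3r4 ran from 1 to 1927 reads. Atg14, which directs the complex to the autophagosome, ran from 0 to 550. Ambra1, a regulator of Beclin 1, ran from 2 to 5889. None of these 5 was detected in all 6 libraries, and in each the genotypes overlapped.

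The 6 genes of ATG9 vesicles and lipid transfer were all tested, with 4 fold changes above 0, 2 below and a median of 0.53. Wipi2, which binds PI3P on the growing membrane and recruits ATG16L1, had 416, 948 and 4712 WT reads against 177, 19 and 786 Foxm1 HET reads. In log2 CPM WT averaged 5.94 ± 2.04 and Foxm1 HET 2.69 ± 1.38 (SD, n = 3 each). The groups met almost without a gap, at 4.24 in both WT replicate 1 and Foxm1 HET replicate 3, and they overlapped when scaled by library size alone. Its log2 fold change was -3.75 (edgeR adjusted p = 0.941, standard error 2.39). Wipi1, a second PI3P-binding protein of the family, had 1, 26 and 0 WT reads against 223, 586 and 1 Foxm1 HET reads. A Foxm1 HET library was thus as low as WT, and the log2 fold change of 6.31 (standard error 3.50) had an adjusted p of 0.897 in edgeR's test.

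Vmp1, a lipid scramblase of the endoplasmic reticulum, was the most abundant of the membrane genes, with 1085, 4299 and 777 WT reads against 4420, 1583 and 6319 Foxm1 HET reads. Its level was between 26.1 and 157 TPM in WT and between 86.1 and 211 TPM in Foxm1 HET, a narrow range for these libraries. Atg9a, the membrane protein of the vesicles, ran from 3 to 3978 reads. The lipid transfer gene Atg2a ran from 28 to 2607 reads. Its paralog Atg2b ran from 1 to 2126. The genotypes overlapped in each of these genes.

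Of the 11 conjugation genes 6 were tested, with 4 fold changes above 0, 2 below and a median of 0.66. Atg4b, the protease that trims LC3 before conjugation and frees it afterwards, had 62, 209 and 3653 WT reads against 5, 1 and 76 Foxm1 HET reads. In log2 CPM WT averaged 4.20 ± 3.26 and Foxm1 HET -1.13 ± 1.78 (SD, n = 3 each), with no overlap, although the raw reads of WT replicate 1 and Foxm1 HET replicate 3 overlapped. Its log2 fold change was -6.80 (edgeR adjusted p = 0.714, standard error 3.07). Atg5, which is joined to ATG12 to form the ligase for LC3, had 3, 808 and 6 WT reads against 211, 12893 and 8 Foxm1 HET reads. Each genotype held a library under 10 reads, and Foxm1 HET replicate 2 was far above the rest at 827 TPM. The log2 fold change of 5.78 (edgeR adjusted p = 0.217, standard error 1.90) became -2.02 without that library.

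The remaining conjugation genes were detected in some libraries and had few or no reads in others. Whether a low count reflects a silent gene or RNA lost in library preparation was not tested. Atg7, the activating enzyme, ran from 1 to 4620 reads and Atg3, the conjugating enzyme for LC3, from 1 to 2374. The protease gene Atg4c had 2388, 2903 and 2919 reads in 3 libraries of both genotypes and at most 3 in the other 3. Atg16l1, which places the ligase on the membrane, ran from 0 to 606. Of the genes not tested, Atg4a reached 298 reads, Atg12 233, Atg10 168, Atg16l2 135 and Atg4d 61 in their highest library, and each had 0 reads in at least 1 library.

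The LC3 and GABARAP proteins are the ubiquitin-like tags of the autophagosome membrane. Of their 5 genes 4 were tested, with 1 fold change above 0, 3 below and a median of -0.47. Map1lc3b, which encodes LC3B, had 367, 96 and 389 WT reads against 1523, 1626 and 3093 Foxm1 HET reads. These were 23.2, 5.66 and 21.2 TPM in WT and 73.2, 143 and 167 TPM in Foxm1 HET. Every Foxm1 HET library was higher than every WT library, also in raw reads, and the lowest of them was 3.15 times the highest WT level in TPM. In log2 CPM WT averaged 3.59 ± 1.31 and Foxm1 HET 6.50 ± 1.35 (SD, n = 3 each). The log2 fold change was 3.01 with a standard error of 2.27, and over all genes the adjusted p was 0.971 in edgeR's test. Of its transcript stretches, 6.01% also occur in other annotated genes, among them predicted genes.

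The other genes of the family were not higher in Foxm1 HET in this way. Gabarapl1 had 490, 349 and 0 WT reads against 314, 1 and 3 Foxm1 HET reads. Gabarapl2 had 58, 0 and 370 WT reads against 456, 1 and 63 Foxm1 HET reads. Gabarap had 104, 42 and 0 WT reads against 0, 42 and 1 Foxm1 HET reads, and 53.5% of its exon bases are shared with a gene on the other strand. In each of the 3, libraries with 0 to 1 reads and libraries with over 40 reads mixed across genotypes. Map1lc3a, which encodes LC3A, had 0 reads in all WT libraries and 44, 0 and 54 in Foxm1 HET. Summed over the family, levels were 69.7, 29.3 and 56.4 TPM in WT and 130, 149 and 178 TPM in Foxm1 HET, with no overlap. The sum includes Map1lc3b, which did not overlap by itself, so it is not a separate result on the family. Of that sum Map1lc3b made up 33.4, 19.3 and 37.6% in the WT libraries, against 56.4, 96.1 and 93.6% in the Foxm1 HET libraries.

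The 6 cargo receptor genes, of which 5 were tested, had 4 fold changes above 0, 1 below and a median of 1.39. Sqstm1, which encodes p62, the receptor that links ubiquitinated cargo to LC3, had 512, 122 and 1 WT reads against 962, 189 and 4834 Foxm1 HET reads. In log2 CPM WT averaged 1.40 ± 3.78 and Foxm1 HET 5.46 ± 1.21 (SD, n = 3 each). The gap between the groups was narrow, from 4.54 in WT replicate 1 to 4.66 in Foxm1 HET replicate 1, and scaling by library size alone closed it. The log2 fold change was 2.57 (edgeR adjusted p = 0.998, standard error 2.64), and 15.5% of Sqstm1 transcript stretches also occur in another gene.

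Tax1bp1, a receptor for ubiquitinated cargo, was the cargo receptor with the highest mean TPM and the smallest p, at 16380, 1821 and 9666 WT reads against 3479, 1236 and 5187 Foxm1 HET reads. It was the only autophagy gene with over 1000 reads in all 6 libraries. The genotypes overlapped, with a log2 fold change of -1.81 (edgeR adjusted p = 0.988, standard error 1.62). Nbr1, a receptor related to p62, ran from 482 to 5158 reads. Bnip3l, which encodes the mitophagy receptor NIX, ran from 2 to 2611. Calcoco1, a receptor for the endoplasmic reticulum, ran from 1 to 1679. Optn, which encodes optineurin and was not tested, ran from 0 to 644. The genotypes overlapped in these 4 genes, too.

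The normalized table deposited by the authors holds log2 values for all 40 genes. In limma's test on it, 4 of the 40 (10%) had an unadjusted p under 0.05, against 4.73% of its 12179 genes. The 4 include Map1s, which was known to pass in edgeR's test when the genes were chosen. Map1s was lower by a log2 difference of -5.95 (limma adjusted p = 0.803). Map1lc3b was higher by 3.04 (limma adjusted p = 0.881), and Ulk1 and Sqstm1 were higher by 2.68 and 3.21. No adjusted p in that table was under 0.05. Uvrag, Atg5 and Atg4b, which had an unadjusted p under 0.05 on counts, were not among the 4.

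Outside the 40 genes, 62 further genes of the pathway were followed, from nutrient control to fusion with the lysosome. Of these 47 were tested, with 23 fold changes above 0, 24 below and a median of -0.08, and none passed edgeR's test (4 had an unadjusted p under 0.05, where 6.03% of all genes did). DESeq2 called 3, Prkaa1, Snap29 and Tollip, where it called 3.13% of all genes with an adjusted p. Tsc2, a brake on mTORC1, had 1080, 10 and 732 WT reads against 3222, 17062 and 1706 Foxm1 HET reads (log2 fold change 4.86, adjusted p = 0.343, edgeR). Prkaa1, a catalytic subunit of AMPK, had 2112, 7351 and 594 WT reads against 102, 3 and 525 Foxm1 HET reads (-4.86, adjusted p = 0.786, edgeR). Snap29, a SNARE of autophagosome fusion, had 2441, 3583 and 229 WT reads against 131, 1 and 34 Foxm1 HET reads (-5.99, adjusted p = 0.768, edgeR). Tollip, an adaptor that binds ubiquitin and LC3, had 235, 99 and 5 WT reads against 1187, 2255 and 4018 Foxm1 HET reads (4.95, adjusted p = 0.773, edgeR). In log2 CPM the genotypes did not overlap for 7 of the 47 genes, where 8.68% of all genes did not. Tollip was higher in Foxm1 HET, and Prkaa1, Snap29, Bcl2, Vamp8, Vps39 and Bnip3 were lower, the last 4 named after their values were seen.

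Of the relatives and partners of Map1s followed here, only Lrpprc had at least 10 reads in more than 1 library. Map1a had 1, 0 and 0 WT reads against 0, 0 and 183 Foxm1 HET reads. Map1b had 0 reads in all WT libraries and 957, 0 and 1 in Foxm1 HET. Both encode larger microtubule-associated proteins of the family, and each was seen in 1 library above 10 reads. Rassf1, whose product binds MAP1S, had 55, 0 and 0 WT reads against 3, 0 and 0 Foxm1 HET reads. Lrpprc, a mitochondrial RNA-binding partner of MAP1S, had 486, 269 and 298 WT reads against 2905, 3 and 1827 Foxm1 HET reads (log2 fold change 1.20, adjusted p = 0.998, edgeR). Lrpprc was the only 1 of these 4 genes with enough reads to be tested.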

How the data were processed

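RNA-Seq was analysed for 3 WT and 3 Foxm1 HET libraries, grouped by the genotype labels. The authors aligned single reads of 50 bases to GRCm38 (mm10) with STAR 2.7.2b. They deposited raw counts per gene (27179 genes) and a normalized table of 12179 genes with log2 values. The counting program, its use of strand and the treatment of duplicates are not given in the sources used here, and the labels and the methods name different library kits. Duplicate molecules from PCR are not marked in such counts, and p-values measure only the spread between these libraries, which may be partly technical. The methods speak of 3 pairs of mice, but the labels tie no library to an animal.

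Counts were tested in R 4.3.3 with edgeR 4.0.16 (default low-count filter, TMM, quasi-likelihood test, Benjamini-Hochberg adjustment over all genes tested). Standard errors were derived from each fold change and its F statistic. The biological coefficient of variation was 1.66. Log2 CPM used a prior count of 2. Library totals and TMM factors scaled the counts, and Foxm1 HET replicate 2 was the shallowest. The alternatives were other scalings and filters, a replicate block, each library left out, DESeq2 1.42.0, and limma 3.58.1 (voom, trend and the normalized table). The test scripts were checked on simulated counts with much less spread than these libraries show, which does not measure their error rates here. TPM were computed from counts and gene lengths. Shared stretches came from the GENCODE annotation and promoters from RefSeq.

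The genes and lists were chosen with earlier results of these data known. Fold changes were given for Map1s, for genes whose genotypes did not overlap in log2 CPM or whose unadjusted p was under 0.05, and for the smallest p in each role group. Reads per library were also given for the highest mean TPM of each group and for all LC3 and GABARAP genes. Ulk1 in the normalized table was named after its value was seen.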

Additional observations from a re-analysis of the deposited data

How the results depend on the processing

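With a biological coefficient of variation of 1.66 and 3 libraries per genotype, the median standard error of the autophagy genes was 2.36 on the log2 scale, and 7 of the 40 genes had too few reads to be tested. Against 27 genes called over the whole table, RLE factors gave 10, upper-quartile factors 43, library size alone 7, DESeq2 194 (116 higher, 78 lower) and limma-voom 4 (all lower). The counts were 0 with at least 10 reads in every library (157 at an unadjusted p under 0.05), with the replicate block (108), with limma on the normalized table (576) and with limma-trend at prior counts of 2 (277) and 0.5 (268). Leaving out 1 library gave 0 to 29 genes. The autophagy genes called, 1 in the analysis as reported, were 0 under RLE, the 10-read filter, the replicate block, each library left out, voom, the normalized table and both limma-trend fits. Among the other autophagy genes DESeq2 called 3.

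Map1s was lower under every alternative run. It kept its call with upper-quartile factors, library size alone, no filter and DESeq2. It missed the threshold with RLE (-8.75, adjusted p = 0.125), the 10-read filter (-9.75, adjusted p = 0.134), voom (-8.47, adjusted p = 0.847), the normalized table (-5.95, adjusted p = 0.803) and limma-trend (-8.61 and -8.79). Leaving out 1 library gave -11.09 to -7.63. With the replicate block it was -9.53 (adjusted p = 1). Whether replicate numbers pair the samples cannot be told from these values. Deviations of same-numbered libraries had r of 0.016, -0.025 and -0.069, against -0.025 to 0.055 for libraries of different numbers. With 3 libraries per genotype, such values cannot exclude a pairing. No named gene was called with the block, and none but Map1s was called without it in the analysis as reported. The cause of the lost Map1s calls was not tested.

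Of 148 further fold changes of single named genes, 142 kept their direction and side of the threshold. Another 4 kept their direction with no adjusted p from DESeq2, and 2 reversed. None of these genes was called in the analysis as reported, and several alternatives called no gene at all. Staying on the same side of the threshold therefore says little about them. Leaving out each library moved Uvrag between -0.84 and 4.80 and Atg5 between -2.02 and 11.32, negative for each only without Foxm1 HET replicate 2. The median of all genes was -0.26, and it ranged from -0.53 without Foxm1 HET replicate 3 to 0.26 with voom (0.14 with upper-quartile factors, 0.10 with library size alone). The median of the autophagy genes ranged from -0.66 without Foxm1 HET replicate 2 to 1.08 with the block.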
